A study of Mus musculus with 20 samples.

Results

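The mRNAs described here encode 10 regulators of cell division, Aurka, Aurkb, Plk1, Nek2, Fam83d, Kif18b, Ccnb1, Cdc20, Bub1 and Cenpe, in mouse embryonic stem cells (ESCs) from which the gene Cnot3 was deleted. They were taken by symbol from the 37991 Ensembl gene IDs of the deposited count tables, and all 10 were found. They were chosen by function and with measured results of these data in view, of which the loss of RNA after actinomycin D in KO and WT is the one named, so the values of that loss are given as a description. Where counts of genes past a threshold are printed for it, the share over all genes stands beside them and nothing is read from them. All 10 passed the filter on low counts in both fits, and their raw counts ran from 227 to 13758 reads per library.

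Cnot3 conditional knockout ESCs received 4-hydroxytamoxifen (4OHT) at 0.1 µM, which deletes the conditional allele (KO), or DMSO (WT). On day 3, RNA was sequenced from KO and WT whole cells (total RNA) and from KO and WT polysomes, the fraction of mRNA carrying several ribosomes. On day 2, KO and WT cells received the transcription inhibitor actinomycin D at 10 µg/ml, and whole-cell RNA was taken at 0, 4 and 8 h. Each of the 10 groups had 2 biological replicates, 20 libraries in all, so p-values measure the spread between replicates of this experiment. The strain is given as C57BL/6, and what drives the Cre recombinase is not given in the labels. The 4 WT libraries of day 3 carry the source label E14Tg2a, whereas the series' design describes WT as the conditional line given DMSO. If that label holds, line and deletion cannot be told apart on day 3. It does not touch the actinomycin D series, in which both arms carry the label of the conditional line.

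Cnot3 belongs to CCR4-NOT, a cytoplasmic complex whose enzymes remove the poly(A) tails of mRNAs and thereby open the way to their decay. Mitotic genes are transcribed mainly in G2 and M phase, through CCAAT boxes bound by NF-Y and through an element called CHR (cell cycle genes homology region) bound by MuvB complexes together with B-Myb and FOXM1. Their proteins assemble the spindle, attach chromosomes to it and time the separation of sister chromatids. In bulk RNA, fewer cells in G2 and M phase and less RNA per such cell cannot be told apart.

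The promoters of 3 of the genes are shown because Kif18b, Fam83d and Plk1 had the largest slope differences between KO and WT and carry both elements. Each window runs from 250 bases before the RefSeq start to 50 bases after it (GRCm38.p6), 5′ to 3′ on the strand of the gene, with CCAAT and CHR matches in capitals. Kif18b lies at chr11:102925075-102925374 on the minus strand, Fam83d at chr2:158767849-158768148 on the plus strand and Plk1 at chr7:122159185-122159484 on the plus strand.
Kif18b: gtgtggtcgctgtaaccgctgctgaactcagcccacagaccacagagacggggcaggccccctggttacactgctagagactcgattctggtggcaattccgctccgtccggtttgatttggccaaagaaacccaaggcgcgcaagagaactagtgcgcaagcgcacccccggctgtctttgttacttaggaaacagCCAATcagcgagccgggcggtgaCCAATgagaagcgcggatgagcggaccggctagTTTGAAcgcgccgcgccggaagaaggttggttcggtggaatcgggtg
Fam83d: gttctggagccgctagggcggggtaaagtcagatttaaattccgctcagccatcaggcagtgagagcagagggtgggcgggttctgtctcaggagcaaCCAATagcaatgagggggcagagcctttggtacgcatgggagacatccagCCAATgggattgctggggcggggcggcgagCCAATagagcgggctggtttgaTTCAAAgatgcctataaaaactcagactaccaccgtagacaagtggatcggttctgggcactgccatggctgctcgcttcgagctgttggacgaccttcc
Plk1: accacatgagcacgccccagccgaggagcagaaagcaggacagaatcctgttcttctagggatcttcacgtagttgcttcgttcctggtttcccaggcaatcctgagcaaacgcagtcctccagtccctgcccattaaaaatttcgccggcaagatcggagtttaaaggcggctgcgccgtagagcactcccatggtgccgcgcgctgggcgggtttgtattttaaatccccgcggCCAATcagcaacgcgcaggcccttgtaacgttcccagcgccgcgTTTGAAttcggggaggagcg
CCAAT (or ATTGG on the other strand) was present in 9 of the 9 windows for which the RefSeq table had an entry, against 37.4% of 32851 windows of all genes, and 7 of the 9 held at least 2 copies, against 11.7%. The CHR sequence TTTGAA (or TTCAAA) was present in 5 windows, those of Aurka, Cdc20, Fam83d, Kif18b and Plk1, against 17.9% of all windows. The same 5 held both elements, against 6.95%. Windows of Bub1, Ccnb1, Cenpe and Nek2 held CCAAT without TTTGAA. These are matches of letters, not measured binding.

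The 3′ untranslated regions (3′ UTRs) were searched for letters recognised by proteins that can recruit CCR4-NOT, the Pumilio site TGTANATA and the AU-rich heptamer TATTTAT, on the transcribed strand only. Pumilio sites were found in 2 of the 10 genes, Ccnb1 and Nek2, against 23.2% of 14035 genes tested, and AU-rich matches in 5 of 10, against 26.3%. The sites of Ccnb1 and Nek2 are shown with 10 bases on either side and the match in capitals, as is the AU-rich match of Kif18b, each with its position in the 3′ UTR (GENCODE M21).
Ccnb1 Pumilio match at base 50: atgtgccgccTGTACATAggatacctac
Ccnb1 Pumilio match at base 223: atccaactaaTGTATATAtctgtagcct
Nek2 Pumilio match at base 1551: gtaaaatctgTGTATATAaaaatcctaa
Kif18b AU-rich match at base 564: acatgtattgTATTTATatgtatacac
Bub1, Ccnb1, Cenpe and Nek2 also held an AU-rich match, and Aurka, Aurkb, Plk1, Fam83d and Cdc20 held neither. The 10 genes had 3′ UTRs of 62 bases (Cdc20) to 1693 bases (Nek2), with a median of 544, against 927 over all genes tested.

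Reads assigned to genes came to 27664391 to 35170012 per total library, 13832829 to 16688555 per polysome library and 14513891 to 33262905 per actinomycin D library. The total libraries stood apart, with 29568 to 32072 genes holding a read, against 19537 to 21086 in the other 16. WT polysome replicate 2 stood apart as well, with 5.04% of its gene counts in mitochondrially encoded genes. The 3 other polysome libraries held 0.913% to 1.38%. In WT polysomes 7 of the 10 mitotic genes were lower in replicate 2 than in replicate 1, down to a ratio of 0.638. The count was also 7 in KO total RNA, at ratios no lower than 0.933. In KO polysomes the ratio of replicate 2 to replicate 1 reached 1.70, for Cenpe. The log2 change of Cnot3 itself was -2.59 in KO whole cells, -2.45 in KO polysomes and -3.21 at 0 h. Summed levels of 10 ESC markers were 3502 to 3696 CPM in KO total RNA and 6674 to 7287 CPM in WT total RNA, none of them at 0, and 8 of the 10 fell in KO. Summed levels of 12 trophectoderm markers were 686 to 704 CPM in KO and 196 to 205 CPM in WT total RNA, and 303 to 315 CPM in KO and 165 to 175 CPM in WT at 0 h, and 10 of the 12 rose in total RNA. Markers of feeder fibroblasts (11 genes) came to 56.6 to 64.5 CPM in KO and 42.6 to 46.8 CPM in WT total RNA, with 5 of the 8 tested higher. Primitive endoderm markers (7 genes) came to 53.6 to 61.3 CPM in KO and 67.0 to 71.0 CPM in WT total RNA. Of these 7, 1 was higher in total RNA and 0 were lower, with a median log2 change of -0.30. In polysomes and at 0 h their sum was instead higher in KO without overlap, with median log2 changes of 0.06 and 0.35. Mesoderm and neuroectoderm markers (6 genes) came to 77.0 to 81.0 CPM in KO and 50.9 to 53.0 CPM in WT total RNA, with 2 of the 5 tested higher and 1 lower. The part of these shifts in the values of the mitotic genes was not tested.

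Levels are CPM, counts scaled to library size with TMM factors of each fit, so levels of day 3 and of the actinomycin D series are not set against each other. Per kilobase of exon at 0 h, the level in KO was highest for Cdc20 at 199 ± 4.36 CPM per kb (SD, n = 2), followed by Plk1, Kif18b, Aurka, Bub1, Aurkb, Nek2, Ccnb1, Cenpe and Fam83d, the lowest at 20.8 ± 0.33. In WT the order ran Cdc20 at 158 ± 0.28 CPM per kb, Plk1, Aurka, Bub1, Aurkb, Kif18b, Nek2, Ccnb1, Cenpe and Fam83d at 13.5 ± 0.060. Kif18b stood between Plk1 and Aurka in KO, at 87.5 ± 1.21 CPM per kb, and beside Nek2 in WT, at 36.7 ± 1.74 against 35.4 ± 0.30 for Nek2, a difference within the spread of Kif18b.

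After 8 h of actinomycin D, 9 of the 10 mRNAs kept a larger share of their 0 h level in KO than in WT, the exception being Bub1. The share over all genes was not counted, so nothing is read from this count. Aurka, Plk1, Nek2, Fam83d, Kif18b and Cenpe held 62.7% to 94.0% of their 0 h level after 8 h in KO and 18.9% to 31.2% in WT. Ccnb1 and Aurkb kept 98.6% and 109% in KO and 52.1% and 70.3% in WT, and Bub1 gained relative to the library in both arms. These shares are relative to the rest of the library, since total mRNA also falls when transcription stops, so a share above 100% means a slower loss than that of the average mRNA. Each arm is set against its own libraries, and whether total mRNA fell equally in KO and WT was not tested.

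**Figure D1:**
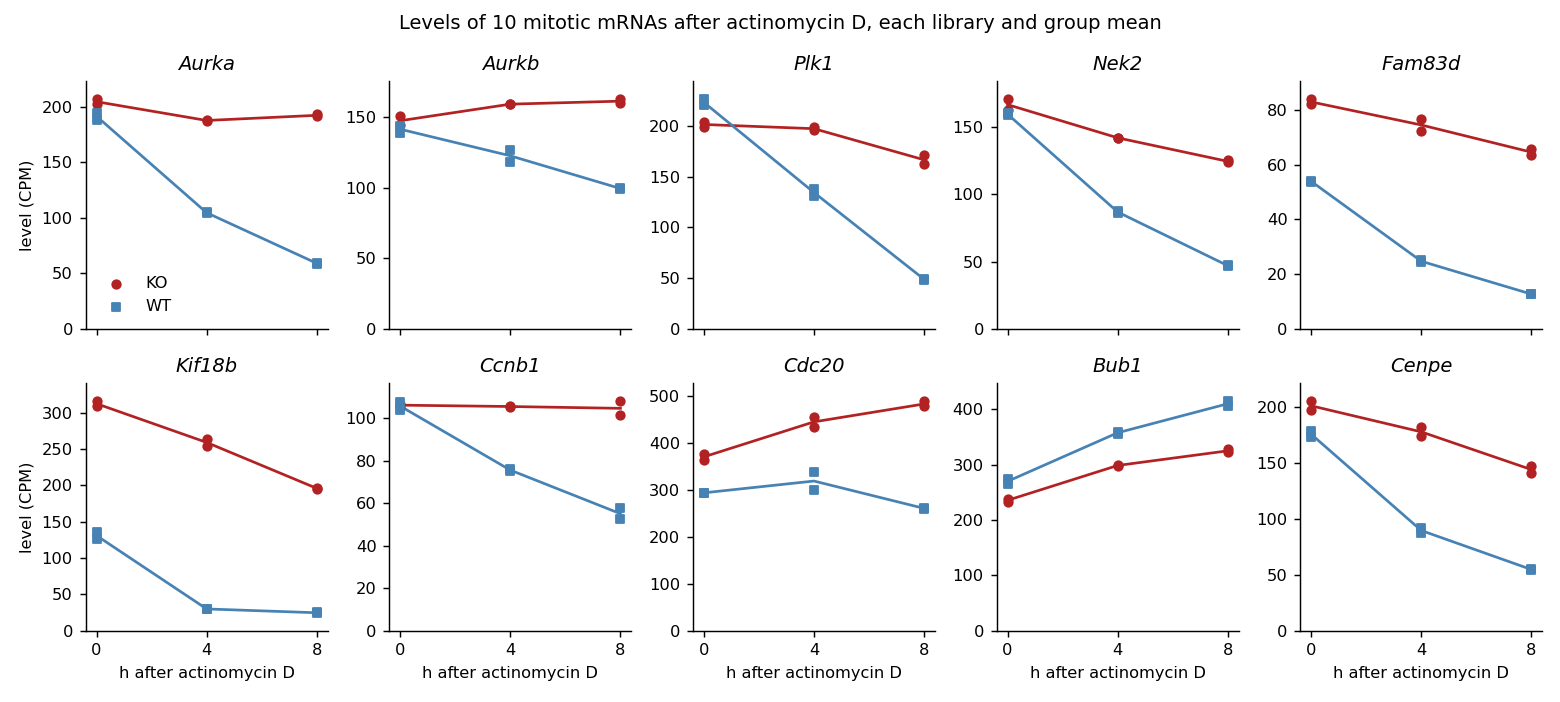
Levels of the 10 mRNAs in each library (CPM, vertical axis from 0) at 0, 4 and 8 h of actinomycin D (horizontal axis), with KO as red circles, WT as blue squares and lines through the means of 2 replicates. The KO and WT values are closest at 0 h and farthest apart at 8 h for most genes, Kif18b is already apart at 0 h, and Bub1 rises in both arms.

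Among the kinases, Aurka (ENSMUSG00000027496; chromosome 2, 172356190 to 172370535, minus strand, GRCm38) encodes Aurora A, which acts at centrosomes and on the spindle. Its level in KO was 207 and 203 CPM at 0 h, 188 and 188 CPM at 4 h and 192 and 193 CPM at 8 h. In WT it was 188 and 195 CPM, then 104 and 105 CPM, then 58.7 and 59.3 CPM. The arms stood close at 0 h and 3.26-fold apart at 8 h, with no overlap at any time. KO kept 94.0% of the 0 h level after 8 h and WT kept 30.8%.

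Plk1 (ENSMUSG00000030867; chromosome 7, 122159439 to 122169873, plus strand), polo-like kinase 1, drives centrosome maturation and mitotic entry. KO libraries held 199 and 204 CPM at 0 h, 196 and 199 CPM at 4 h and 171 and 162 CPM at 8 h. WT libraries held 226 and 221 CPM, then 131 and 138 CPM, then 48.5 and 49.1 CPM. The order of the arms turned round over the series, since KO was below WT at 0 h (ratio of means 0.902) and above it at 4 h (1.47) and 8 h (3.42). Its loss in WT was larger in the later interval, with a log2 change of -0.73 in the first 4 h and -1.46 in the next 4 h.

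Nek2 (ENSMUSG00000026622; chromosome 1, 191821444 to 191833050, plus strand) encodes a kinase that separates centrosomes. It stood at 163 and 171 CPM at 0 h, 142 and 142 CPM at 4 h and 125 and 124 CPM at 8 h in KO. In WT it stood at 159 and 161 CPM, then 85.8 and 87.9 CPM, then 47.3 and 46.5 CPM. KO kept 74.7% and WT 29.4% after 8 h, and the level fell in both intervals in both arms.

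Aurkb (ENSMUSG00000020897; chromosome 11, 69045647 to 69051664, plus strand) encodes Aurora B, the catalytic subunit of the chromosomal passenger complex. Its level was 144 and 150 CPM at 0 h, 159 and 159 CPM at 4 h and 160 and 162 CPM at 8 h in KO. In WT it was 144 and 139 CPM, then 127 and 118 CPM, then 98.7 and 99.8 CPM. The 2 Aurora kinase mRNAs therefore differed in WT, where Aurka kept 30.8% and Aurkb 70.3% of the 0 h level after 8 h.

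Among the spindle proteins, Kif18b (ENSMUSG00000051378; chromosome 11, 102905529 to 102925124, minus strand) encodes a kinesin that, in human cells, limits the length of astral microtubules. KO libraries held 315 and 309 CPM at 0 h, 264 and 254 CPM at 4 h and 196 and 196 CPM at 8 h. WT libraries held 135 and 127 CPM, then 30.1 and 30.0 CPM, then 24.3 and 25.3 CPM. Nearly all of the loss in WT fell in the first 4 h, with a log2 change of -2.12 and then of -0.28. The KO level was 2.39 times the WT level at 0 h, 8.62 times at 4 h and 7.90 times at 8 h. Over 19596 bases Kif18b is overlapped on the opposite strand by Gm26668, an annotated gene with no ID in the tables, and the strand setting of the counting is not given, so reads of the pair cannot be told apart.

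Fam83d (ENSMUSG00000027654; chromosome 2, 158768093 to 158786637, plus strand) encodes a spindle protein that, in human cells, brings casein kinase 1 alpha to the spindle. It stood at 82.1 and 83.9 CPM at 0 h, 72.3 and 76.9 CPM at 4 h and 65.8 and 63.5 CPM at 8 h in KO. In WT it stood at 54.1 and 53.8 CPM, then 24.4 and 25.0 CPM, then 12.6 and 12.8 CPM. The KO level was 1.54 times the WT level at 0 h and 5.10 times at 8 h, with no overlap at any time.

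Cenpe (ENSMUSG00000045328; chromosome 3, 135212537 to 135273611, plus strand) encodes the kinetochore kinesin that carries chromosomes towards the spindle equator. Its level was 197 and 205 CPM at 0 h, 182 and 174 CPM at 4 h and 147 and 141 CPM at 8 h in KO. In WT it was 178 and 173 CPM, then 87.0 and 92.2 CPM, then 54.3 and 55.2 CPM. KO kept 71.6% after 8 h and WT 31.2%.

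Ccnb1 (ENSMUSG00000041431; chromosome 13, 100778650 to 100786570, minus strand) encodes cyclin B1, the activating partner of Cdk1 at mitotic entry. It held 105 and 107 CPM at 0 h, 105 and 106 CPM at 4 h and 108 and 101 CPM at 8 h in KO, so that the libraries of the 3 times overlapped. In WT it held 108 and 104 CPM, then 75.1 and 76.1 CPM, then 57.7 and 52.5 CPM, and kept 52.1% after 8 h.

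Cdc20 (ENSMUSG00000006398; chromosome 4, 118432901 to 118437352, minus strand) activates the anaphase-promoting complex (APC/C), the ubiquitin ligase that ends metaphase. In KO it held 377 and 365 CPM at 0 h, 435 and 457 CPM at 4 h and 479 and 489 CPM at 8 h. In WT it held 294 and 295 CPM, then 338 and 301 CPM, then 263 and 259 CPM. Its share of the 0 h level after 8 h was 130% in KO and 88.7% in WT.

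Bub1 (ENSMUSG00000027379; chromosome 2, 127801122 to 127831865, minus strand), a kinase of the spindle assembly checkpoint at kinetochores, gained relative to the library in both arms. It held 238 and 233 CPM at 0 h, 300 and 297 CPM at 4 h and 322 and 328 CPM at 8 h in KO. In WT it held 265 and 275 CPM, then 356 and 359 CPM, then 406 and 414 CPM. KO was below WT at each time without overlap, at 0.873, 0.835 and 0.793 of the WT level at 0, 4 and 8 h.

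Slopes summarise the series as log2 change per hour of actinomycin D relative to the library. In KO they ran from -0.08 ± 0.04 (SE) for Kif18b to 0.06 ± 0.01 for Bub1, and 5 of the 10 were past the threshold of an adjusted p under 0.05 (edgeR), against 67.9% of the 15823 genes tested. In WT they were -0.31 for Kif18b, -0.27 for Plk1, -0.26 for Fam83d, -0.22 for Nek2, -0.21 for Aurka and Cenpe, -0.12 for Ccnb1, -0.06 for Aurkb, -0.02 for Cdc20 and 0.08 for Bub1. In WT 9 of the 10 were past the threshold, against 73.8% of all genes, and 8 of these were negative, against 38.8%. Kif18b, the steepest of the 10 in both arms, was past the threshold in WT and not in KO. Its KO slope did pass with time as a factor (-0.08), in the KO libraries alone (-0.08) and with 0 and 4 h only (-0.07). It also passed under library totals (-0.11) and ribosomal protein scaling (-0.19). Since the choice of the genes used this loss, nothing is read from these counts.

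The difference in slope, KO minus WT, was 0.24 ± 0.03 log2 per hour for Plk1 (SE), 0.22 ± 0.06 for Kif18b, 0.22 ± 0.01 for Fam83d, 0.20 ± 0.01 for Aurka, 0.17 ± 0.01 for Nek2 and 0.15 ± 0.01 for Cenpe. It was 0.11 ± 0.01 for Ccnb1, 0.08 ± 0.01 for Aurkb, 0.07 ± 0.02 for Cdc20 and -0.02 ± 0.01 for Bub1. Past the threshold were 9 of 10, against 19.0% of all genes, and all 9 were higher in KO, against 10.2%. Since this loss stood in the rule that named the genes, nothing is read from these counts. Ranked by slope difference among the 15823 genes, Plk1 stood at 136, Kif18b at 178, Fam83d at 201, Aurka at 251, Nek2 at 414 and Cenpe at 589 from the top, and Bub1 at 8432. Kif18b left the called genes with no filter and when either 0 h KO, either 0 h WT or either 8 h KO library was left out, Cdc20 did so with 0 and 4 h alone, and Bub1 was called lower with time as a factor.

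**Figure D2:**
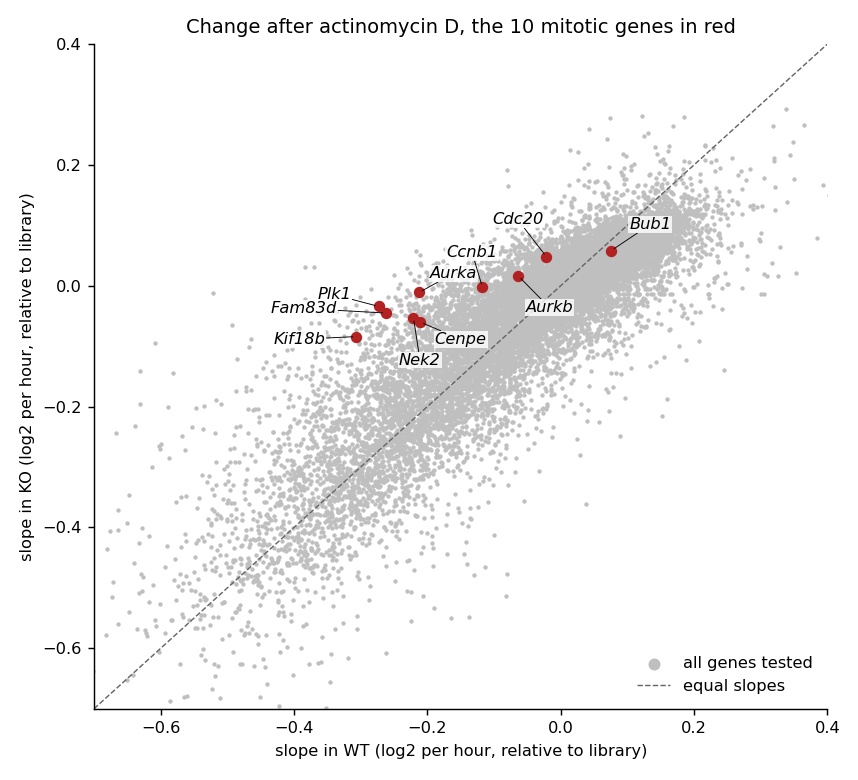
Slope over 0, 4 and 8 h of actinomycin D in KO (vertical axis) against WT (horizontal axis), in log2 per hour relative to the library, for all 15823 genes tested (grey; 87 lie outside the axes) and the 10 mitotic genes (red). The dashed line marks equal slopes, and 9 of the 10 lie above it, from -0.31 (Kif18b) to -0.02 (Cdc20) on the WT axis, with Bub1 just below it.

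Before actinomycin D on day 2, Kif18b, Fam83d and Cdc20 were the genes with the highest KO over WT levels, and Bub1 and Plk1 were lower in KO. The log2 change at 0 h was 1.25 ± 0.04 (SE) for Kif18b, 0.62 ± 0.05 for Fam83d, 0.33 ± 0.04 for Cdc20, 0.20 ± 0.04 for Cenpe and 0.10 ± 0.04 for Aurka. It was -0.20 ± 0.04 for Bub1 and -0.15 ± 0.04 for Plk1. These 7 were past the threshold, against 62.7% of the 15823 genes. The 0 h libraries also enter the slopes, so the count is given without reading. Nek2 and Aurkb (both 0.06 ± 0.04) and Ccnb1 (0.01 ± 0.05) were not past it. Under library totals Aurkb (0.21), Nek2 (0.22) and Ccnb1 (0.16) were called higher, where 6619 of all genes were higher and 3396 lower. Under ribosomal protein scaling they were also called higher (0.48, 0.48 and 0.43), beside 10203 genes higher and 1141 lower. RLE scaling and DESeq2 called Ccnb1 lower (-0.13 in both). Plk1 (0.27) and Bub1 (0.22) changed sign at 0 h under ribosomal protein scaling, and under library totals neither was past the threshold (0.01 and -0.04). Cenpe was not past it under RLE scaling or DESeq2 (0.06 in both), nor was Aurka (-0.04 in both), and Aurka was also lost with no filter (0.07) and when either 0 h KO, 0 h WT, 4 h KO, 8 h KO or 8 h WT library was left out (0.06 to 0.12).

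On day 3 in whole cells, 2 of the 10 mRNAs rose in KO, Kif18b and Fam83d, and 0 were called lower. Kif18b stood at 265 and 260 CPM in KO and 111 and 115 CPM in WT, a log2 change of 1.21 ± 0.14 (SE, adjusted p = 0.000427, edgeR). Fam83d stood at 73.5 and 76.5 CPM in KO and 47.8 and 50.3 CPM in WT, a log2 change of 0.61 ± 0.14 (adjusted p = 0.00935, edgeR). Of all 18303 genes tested, 28.2% were called, 16.0% being higher and 12.2% lower, so 2 of 10 is close to the background share.

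Cdc20 stood at 481 and 467 CPM in KO total RNA and 370 and 362 CPM in WT, and its log2 change of 0.37 ± 0.19 did not pass (adjusted p = 0.156, edgeR). The WT polysome libraries enter the same fit, and without either of them the change of Cdc20 was 0.35. The other 7 had log2 changes from -0.18 ± 0.17 for Aurkb to 0.19 ± 0.21 for Cenpe, with adjusted p of 0.442 to 0.817 (edgeR). Aurka, Plk1 and Nek2 thus held 1.04, 0.942 and 1.07 times the WT level in KO, values that the spread does not separate from 1 with TMM factors. Under ribosomal protein scaling Aurka (0.63) and Nek2 (0.68) were called higher, where 8786 of all genes were higher and 301 lower. In a fit of the total libraries alone, Cdc20 (0.37) and Cenpe (0.19) were also called higher and Aurkb (-0.19) and Bub1 (-0.15) lower, and over all genes 5469 of 18924 were then higher and 5467 lower. Fam83d did not pass when any 1 of the 4 total libraries was left out (adjusted p 0.0854 to 0.147, edgeR). Ccnb1 stood at 471 and 457 CPM in KO and 435 and 420 CPM in WT total RNA. In polysomes it stood at 114 and 113 CPM in KO and 106 and 121 CPM in WT. The total and polysome libraries differ in RNA selection, so these levels are not set against each other, and the cause of the gap was not tested.

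**Figure D3:**
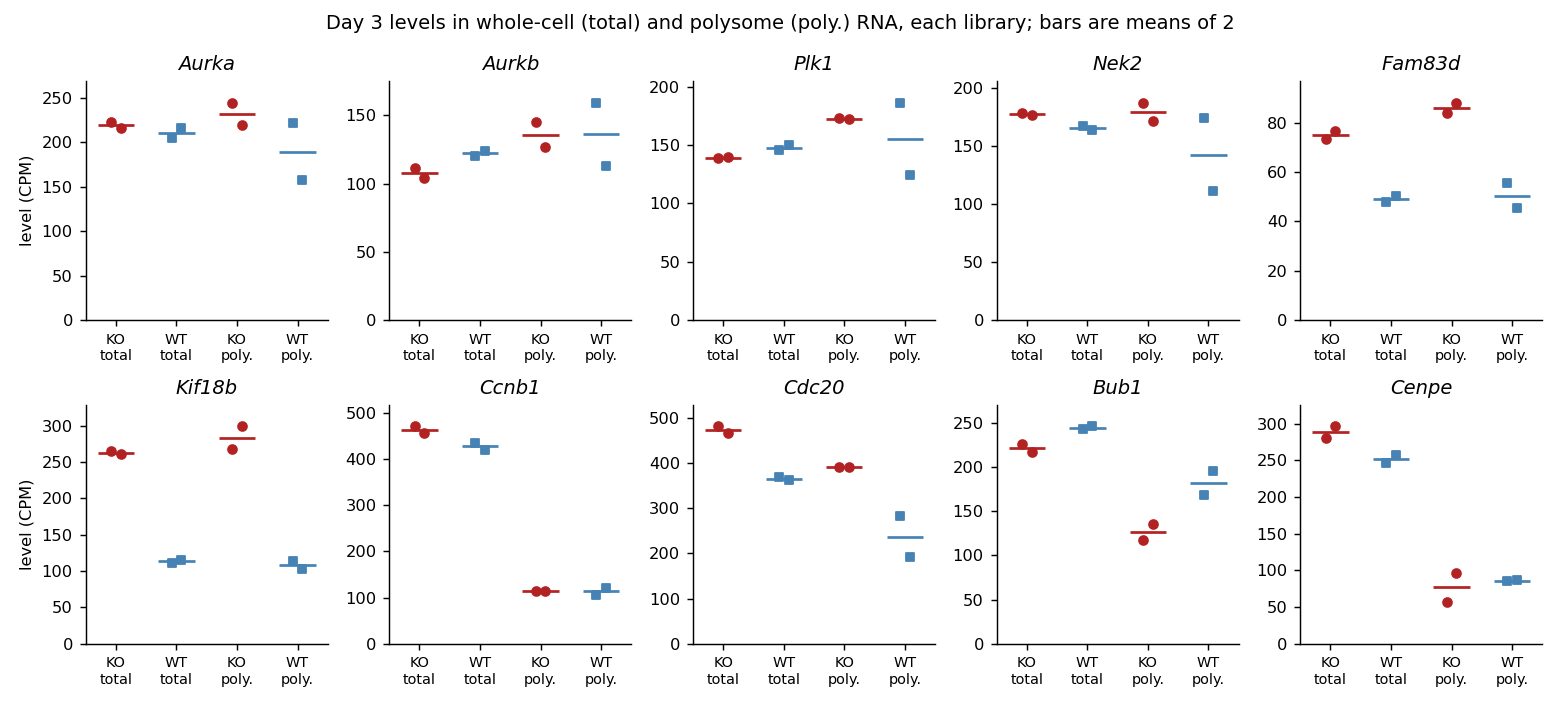
Levels of the 10 mRNAs on day 3 (CPM, vertical axes from 0) in each library of whole-cell and polysome RNA, with KO as red circles, WT as blue squares and bars at the mean of 2 replicates. Kif18b, Fam83d and Cdc20 are higher in every KO library of both fractions. The WT polysome replicates lie apart for Aurka, Aurkb, Plk1, Nek2 and Cdc20, and the KO polysome replicates for Cenpe.

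In polysome RNA, Kif18b, Fam83d and Cdc20 rose in KO and Bub1 fell. Kif18b stood at 267 and 299 CPM in KO polysomes and 113 and 103 CPM in WT polysomes (log2 change 1.39 ± 0.15, adjusted p = 0.00011, edgeR). Fam83d stood at 83.8 and 88.1 CPM in KO and 55.4 and 45.5 CPM in WT (0.77 ± 0.14, adjusted p = 0.00213, edgeR). These 2 were apart without overlap in both fractions, as were Cdc20 and Bub1, and in whole cells the other genes were apart as well. The share over all genes was not counted, so nothing is read from the lack of overlap.

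Cdc20 stood at 392 and 391 CPM in KO polysomes and 283 and 191 CPM in WT polysomes (0.72 ± 0.19, adjusted p = 0.0132, edgeR). Bub1 stood at 118 and 136 CPM in KO and 168 and 195 CPM in WT (-0.52 ± 0.15, adjusted p = 0.0206, edgeR). The count of 4 called genes stands against 37.0% of all 18303 genes, a share close to it, and the 3 higher ones against 15.9%. The other 6 overlapped between KO and WT, with log2 changes from -0.16 ± 0.21 for Cenpe to 0.33 ± 0.19 for Nek2 and adjusted p of at least 0.201 (edgeR). Of these, Aurka (0.56) and Nek2 (0.60) were called higher under library totals, where 4547 of all genes were higher and 2000 lower. Without WT polysome replicate 2 the same 4 genes were called, with log2 changes of 1.33 for Kif18b, 0.64 for Fam83d, 0.48 for Cdc20 and -0.40 for Bub1. Without WT polysome replicate 1 they were 1.45, 0.91, 1.03 and -0.63, and Aurka (0.56), Plk1 (0.46) and Nek2 (0.69) were called as well. Cdc20 did not pass without either KO polysome library (adjusted p 0.0695 and 0.0745, edgeR). Bub1 did not pass under library totals (adjusted p = 0.21), with no filter, in a fit of the polysome libraries alone, or without any 1 total or KO polysome library.

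Polysome association, the KO change in polysomes minus that in whole cells, was past the threshold for 0 of the 10 genes, against 0.0109% of 18303. At an unadjusted p under 0.05 the count was 0 of 10 and 2304 of all genes, and DESeq2 also called 0 of 10. The log2 differences ran from -0.38 ± 0.21 for Bub1 to 0.35 ± 0.27 for Cdc20, with 0.18 ± 0.20 for Kif18b and 0.16 ± 0.20 for Fam83d. Without WT polysome replicate 1, 6 of the 10 were called, Aurka, Aurkb, Plk1, Nek2 and Cdc20 higher and Bub1 lower, beside 4959 of 20409 genes in all. Without WT polysome replicate 2 the count was 0 of 10, beside 71 of 20384.

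**Figure D4:**
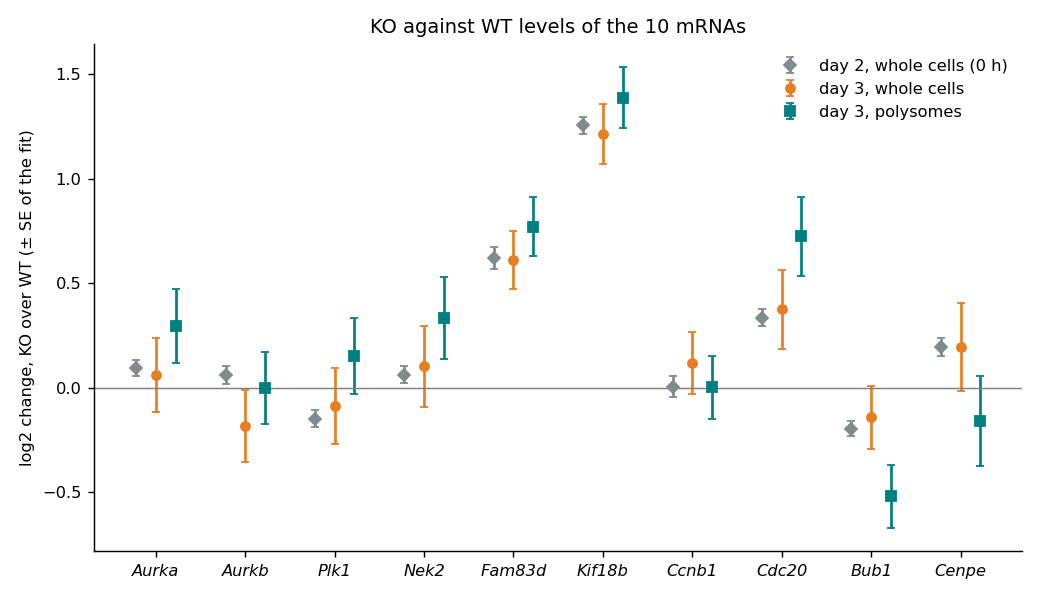
Log2 change of level, KO over WT (vertical axis), for the 10 genes (horizontal axis) at 0 h on day 2 and in whole-cell and polysome RNA on day 3, with bars of 1 standard error of the fit. Kif18b lies between 1.21 and 1.39 and Fam83d between 0.61 and 0.77 in all 3 comparisons, and Aurka, Aurkb, Plk1, Nek2 and Ccnb1 lie between -0.18 and 0.33.

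The slope differences of other genes of cell division were followed in lists chosen with earlier results known, so their counts are a description from which nothing further is read. The counts of the lists were made with TMM factors only. The 96 genes listed as other mitotic genes included Cdc25a, which was also in the G1/S list. They also included Fam83a, Fam83b and Fam83h, relatives of Fam83d whose role in mitosis was not examined here. Of these 96, 40 had a higher slope in KO past the threshold and 4 a lower one. Their median slope difference was 0.04 log2 per hour. The median was 0.16 for the 10 genes and -0.01 over all 15823, of which 1614 were higher and 1389 lower. This split over all genes moved to 1693 and 556 under RLE scaling and 2349 and 648 under library totals. Under ribosomal protein scaling it was 3667 and 261. By role, 6 of 15 other entry kinases, cyclins and phosphatases were higher and 1 was lower, 6 of 22 checkpoint and APC/C genes were higher and 0 lower, 12 of 29 kinetochore and passenger genes were higher and 2 lower, and 16 of 30 spindle motor, microtubule and cytokinesis genes were higher and 1 lower. Outside mitosis, 9 of 30 G1/S and replication genes were higher and 1 lower, with a median of 0.01, and 3 of 14 Cdk inhibitors and E2F repressors were higher and 0 lower. Of 10 G2/M transcription factors 4 were higher, with a median of 0.05.

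**Figure D5:**
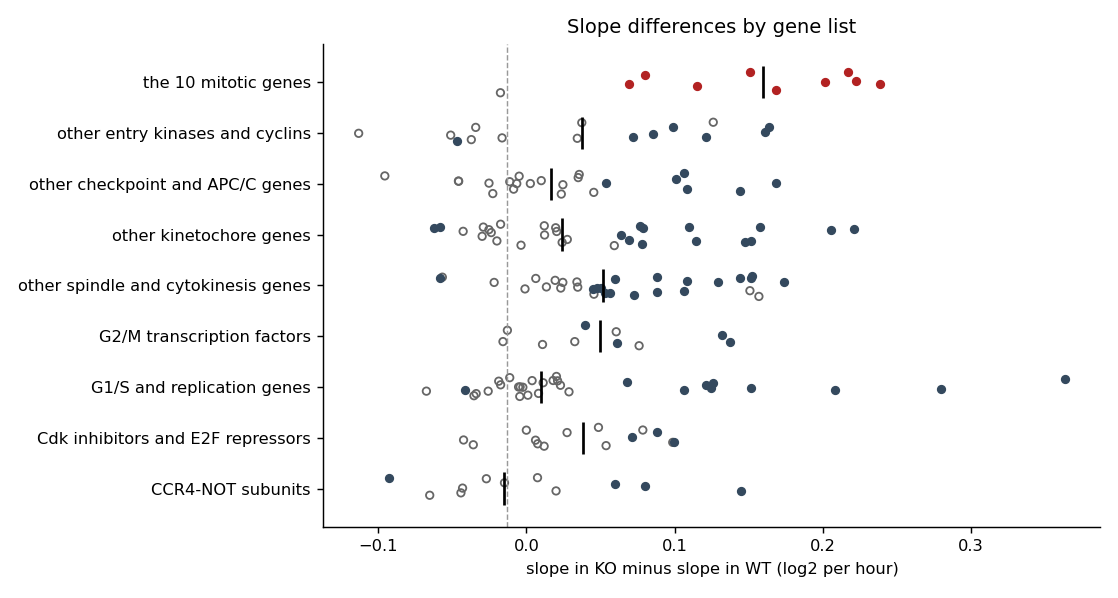
Slope in KO minus slope in WT (log2 per hour, horizontal axis) for each gene of the lists (rows), filled where past the threshold, with the list median as a vertical bar and the median of all genes as a dashed line. The 10 mitotic genes have a median of 0.16, and the medians of the other lists lie between -0.01 and 0.05.

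In day 3 total RNA, 7 of the 96 other mitotic genes rose and 12 fell, with a median log2 change of -0.02, against 16.0% of all genes higher and 12.2% lower, so these counts were below and close to the background shares. Mastl, the Greatwall kinase that keeps a phosphatase off during mitosis, rose by 0.53 ± 0.14 (SE), and Cks1b, a small Cdk-binding subunit, fell by 0.79 ± 0.15. Among APC/C genes Ube2s, an E2 enzyme of the complex, fell by 0.74 ± 0.19 and its subunit Anapc5 by 0.56 ± 0.15. The kinetochore genes Ska2 and Spc24 fell by 1.03 ± 0.14 and 0.68 ± 0.14. Cep55, which acts in abscission, fell by 0.73 ± 0.14, and Fam83h, a relative of Fam83d, rose by 1.07 ± 0.19. These were the 2 genes of smallest adjusted p in each list.

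Of the 10 transcription factors that act on G2/M promoters, 0 were called higher and 2 lower in KO total RNA, Lin52 of the MuvB core at -0.93 ± 0.17 and Nfya, a subunit of NF-Y, at -0.60 ± 0.14. These counts and the next ones stand against 16.0% of all genes higher and 12.2% lower. Of 30 G1/S and replication genes 0 rose and 7 fell, E2f2 by 0.82 ± 0.15 and E2f3 by 0.70 ± 0.13. Of 14 Cdk inhibitors and E2F repressors 3 rose and 4 fell, with Rb1, the retinoblastoma protein, at 0.79 ± 0.14 and Cdkn1b, a Cdk inhibitor, at -0.80 ± 0.14. Of 11 CCR4-NOT subunits 0 rose and 3 fell, among them Cnot3 and the deadenylase Cnot6 at -0.65 ± 0.16.

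Genes whose pattern was most like the mean profile of the 10 were taken from 9144 other genes by Pearson correlation over the 10 group means, each centred within its experiment. These were Rrp36 (r = 0.997), Cep63 (0.997), Map1s (0.997), Ttc1 (0.996), Med17 (0.995) and Nufip1 (0.995), a description without a p, since the points share libraries. Their slopes ran from -0.01 to -0.05 log2 per hour in KO and from -0.15 to -0.36 in WT. Among the 10 themselves the likeness to their own mean was highest for Fam83d (0.993) and Aurka (0.987), lower for Cdc20 (0.698) and negative for Bub1 (-0.812).

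Other genes could share reads with 4 more of the 10. Plk1 is overlapped on the opposite strand by Gm44985 over 1016 bases and Nek2 by Gm38037 over 550 bases, neither with an ID in the tables, and Cdc20 by Elovl1 over 53 bases. The pseudogene Ccnb1-ps held 2 to 89 reads per library.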

How the data were processed

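RNA was sequenced from 20 ESC libraries in 10 groups of 2. The deposited values were raw counts per gene for 37991 Ensembl IDs, which per the submitters' processing notes the authors made with the aligner STAR (2.3.0e), the genome build mm9 and HTSeq (no version stated). Symbols were matched for 32919 IDs. Positions and 3′ UTRs came from GENCODE M21 (GRCm38) and promoter windows from RefSeq (GRCm38.p6), since no mm9 genome was used here. Unassigned reads, which name no gene, were left out. Those outside annotated genes made up 4.75% to 23.7% of the reads that were assigned, outside genes or ambiguous. Alignments to several places numbered 10341991 to 15515077 per total library and 0 in every other library. No 2 libraries held identical values.

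The 8 libraries of day 3 and the 12 of the actinomycin D series were fitted separately with edgeR 4.0.16 (R 4.3.3), with TMM factors, a low-count filter (filterByExpr, minimum 10), quasi-likelihood F-tests (robust) and Benjamini-Hochberg adjustment over all genes tested, with a threshold of 0.05. Slopes came from a linear term in hours for each arm. Where a library was left out, the lone library of that group was taken to vary as the rest did. The fits were tested on simulated data. Members and lists were chosen with earlier results of these data known. Named were all 10 genes, the 2 genes of smallest adjusted p in total RNA in each list (average log2 CPM of at least 3) and the 6 genes most like the mean profile. Alternatives were RLE scaling, library totals, scaling to 82 ribosomal protein genes, no filter, a filter of 1 CPM in 2 libraries, DESeq2 1.42.0, a replicate block, fits of only the libraries compared, time as a factor, 0 and 4 h only, and each library left out. Figures used matplotlib 3.10.9.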

Additional observations from a re-analysis of the deposited data

Results flagged for a closer look

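The slopes after actinomycin D differed between KO and WT in the interaction term for 9 of the 10 genes, against 19.0% of the 15823 genes tested. The call of Kif18b was lost with no filter, and that of Cdc20 with 0 and 4 h only. The differences, KO minus WT in log2 per hour, were 0.20 for Aurka, 0.0798 for Aurkb, 0.24 for Plk1, 0.17 for Nek2, 0.22 for Fam83d, 0.22 for Kif18b, 0.11 for Ccnb1, 0.0694 for Cdc20 and 0.15 for Cenpe. The loss after actinomycin D is what the choice of the genes named, so these values describe the genes and support nothing further.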

How the results depend on the processing

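Of the 10 genes, 2 were called in total RNA, against 7 under ribosomal protein scaling (all higher), 6 in a fit of only the libraries compared (4 higher and 2 lower) and 1 to 3 with 1 library left out. In polysomes 4 were called, against 8 under ribosomal protein scaling and 2 to 7 with 1 library left out, and association went from 0 to 6 at most, without WT polysome replicate 1. KO slopes called 5, against 9 with time as a factor, 8 under library totals, 10 under ribosomal protein scaling, 8 in the KO libraries alone and 8 with 0 and 4 h only. Over all genes KO slopes called 10751 of 15823, against 11967, 10219 and 12601 of 15823 in the first 3 of these settings, 10964 of 15304 and 9975 of 15626. Signs turned under ribosomal protein scaling for Aurkb (0.58) and Bub1 (0.0899) in polysomes, Plk1 (0.27) and Bub1 (0.22) at 0 h, Bub1 in the WT slope (-0.0676) and slope difference (0.0204), and Aurkb (-0.0890), Cdc20 (-0.0573) and Bub1 (-0.0472) in KO slopes. They turned at 0 h for Aurka (-0.0395 and -0.0396) and Ccnb1 (-0.13) under RLE scaling and DESeq2 and for Plk1 (0.00566) under library totals, and for the WT slope of Cdc20 (0.0306) with 0 and 4 h only. A further 56 of 1320 values changed sign while past the threshold in neither setting. The cause was not tested.

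Ribosomal protein scaling moved the median of all genes from 0.01 to 0.59 in total RNA, -0.08 to 0.49 in polysomes, -0.01 to 0.40 at 0 h and -0.01 to -0.15 in WT slopes. Library totals moved it to 0.28, 0.15 and 0.14 in the first 3, and RLE scaling to -0.15 at 0 h. The split of calls over all genes, 2931 higher and 2225 lower in total RNA, became 5179 and 908 under library totals, 8786 and 301 under ribosomal protein scaling and 1939 and 2690 with DESeq2. At 0 h it was 4718 and 5203, against 3537 and 6898 under RLE scaling. For slope differences it was 1614 and 1389, against 1693 and 556 under RLE scaling. Calls over all genes in total RNA numbered 5156, against 10936 in a fit of only the libraries compared, 9087 under ribosomal protein scaling and 1289 to 9522 with 1 library left out. Those in polysomes numbered 6763, against 3287 in a fit of only those libraries and 3480 to 9406. Slope differences numbered 3003, against 6714 with time as a factor and 1748 to 3680, and association 2, against 188, 40 and 64 under ribosomal protein scaling, no filter and DESeq2 and 0 to 4959.

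Replicate numbers were not taken to pair the samples, since no label ties them to a shared culture or day and a group holds only 2. Correlations of same-numbered deviations ran from -0.06 to 0.33 between the day 3 groups, with 4 of 6 over 0.1, and from -0.20 to 0.18 in the actinomycin D series. With a replicate block the counts were unchanged, at 2 in total RNA, 4 in polysomes, 0 in association, 7 at 0 h, 5 in KO slopes, 9 in WT slopes and 9 in slope differences. Of all 18303 genes the block called 5445 in total RNA, 7014 in polysomes and 2 in association. Of 15823 it called 9956 at 0 h, 10547 in KO slopes, 11533 in WT slopes and 2604 in slope differences.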
